A study of Mus musculus with 9 samples.

Results

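The 10 genes described here encode Cdc45, the MCM2-7 ring (Mcm2, Mcm3, Mcm4, Mcm5, Mcm6 and Mcm7), the GINS subunits Gins1 and Gins2, and the sliding clamp Pcna. They were taken by gene name from the 55414 genes listed in the deposited table of round spermatid (RS) transcript levels, and all 10 were among the 25128 genes that reached a summed count of 10 over the 9 libraries. The set was chosen with measured values of these libraries in view, so the levels and differences of the 10 genes are given as a description. Where the fit across all genes called some of them, the count is printed beside the share of all genes called and is not evidence for these genes.

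At each replication origin the MCM2-7 ring is loaded onto DNA as an inactive double hexamer. Cdc45 and the GINS complex then join each ring to make the active CMG helicase, which unwinds DNA ahead of the replication fork, while Pcna encircles DNA behind it and holds the polymerases and many repair and chromatin assembly factors. Round spermatids are haploid postmeiotic cells that have completed their last round of DNA synthesis, so these genes are measured here after the stage at which their products copy the genome.

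The cells were round spermatids of mouse testis, labelled wild type, which in the study's methods were sorted from adult C57Bl/6 mice with a tdTomato reporter switched on by Stra8-iCre, a Cre active in male germ cells from the spermatogonial stage, so that reporter brightness and cell size define the sorted population. Vehicle RS were kept in medium with 0.15% DMSO for 24 hours. Oxamate RS received 24 mM oxamate, an inhibitor of all lactate dehydrogenases, with the same DMSO, and the last group received 24 mM oxamate together with 0.3 mM octyl-L2HG, a cell-permeable form of L-2-hydroxyglutarate (octyl-L-2HG), in the same DMSO. Each group had 3 libraries (vehicle 1 to 3, oxamate 4 to 6, oxamate with octyl-L-2HG 7 to 9), octyl-L-2HG was not given without oxamate in the samples used here, and the study describes incubations in triplicate. Neither source says whether these came from separate animals or sorts, so p-values measure the spread between these libraries, which may be technical.

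Total counts ran from 32339533 to 39888396 per library. All 10 round spermatid markers examined had counts, and their summed normalized count lay between 75004 and 77190 in vehicle, between 70987 and 72740 in oxamate and between 67185 and 68178 in oxamate with octyl-L-2HG. Within this list, 4 markers were called lower by edgeR and 1 higher for oxamate against vehicle, 5 lower and 0 higher for the combination against oxamate, and 6 lower and 1 higher for the combination against vehicle. In the last of these Tssk6 stood at 0.501 times the vehicle level, Prm1 at 0.585, Tnp2 at 0.594, Prm2 at 0.625, Tnp1 at 0.679 and Tssk1 at 0.872, while Acrv1 stood at 1.19 times (edgeR adjusted p from 1.11e-07 to 0.0299).

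The 9 spermatocyte markers all had counts, but their sum was mostly Syce1, at 15798 to 16944 in vehicle, 14313 to 16355 in oxamate and 17682 to 20486 in the combination. Syce1 was the only one of the 9 called, higher in the combination against oxamate and against vehicle (log2 difference 0.27 and 0.20, adjusted p = 0.0123 and 0.0467). Of the 6 markers of dividing cells, all with counts, Cdk1 was called lower in oxamate and in the combination against vehicle (−0.43 and −0.41), Ccnb1 lower in the combination against vehicle (−0.34), and Mki67 higher in the combination against oxamate and against vehicle (0.45 and 0.41). The endothelial list (all 3 with counts) summed to between 430.3 and 483 in vehicle, between 401 and 418 in oxamate and between 299 and 352 in the combination, where Vwf was called lower against both other groups (−0.30 and −0.52). In the macrophage and blood list 5 of 7 genes had counts, with Lyz2 and Hba-a1 listed at 0, and the sum lay between 129 and 162 in vehicle, between 112 and 124 in oxamate and between 117 and 140.4 in the combination. The spermatogonial list (all 10 with counts) summed to between 292 and 323 in vehicle, between 329 and 334 in oxamate and between 311 and 333 in the combination, with 1 gene called, Sohlh1, lower in the combination against vehicle. The Leydig list (all 5 with counts) summed to between 28.4 and 38.2, between 19.7 and 27.6 and between 32.3 and 40.3 in the same order of groups, so that the oxamate libraries lay lowest. The Sertoli list (between 70.2 and 101 over all libraries) and the myoid list (between 36.2 and 50.4) overlapped between all groups. The part of these markers in the results below was not tested. Oxamate library 4 stood apart from libraries 5 and 6 (chi-square per degree of freedom 18.7 and 23.3, both higher than between any other pair of one group), so results that rest on it are also given without it. Vehicle library 1 was also further from vehicle libraries 2 and 3 (11.9 and 11.3) than those were from each other (6.48).

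Promoter windows from RefSeq (mouse build GRCm38.p6) were matched by gene symbol for 7 of the 10 genes, as 8 windows of 250 bases before and 50 after a start. The 4 windows shown are those of Cdc45, which lay lower with octyl-L-2HG, of Mcm7 and Mcm2, the genes with the highest and the lowest level per length, and of Mcm6, which held the most E2F matches. Only the 250 bases before the start are printed, 5′ to 3′ along the gene, and capitals mark matches on either strand to the letters TTTCCCGC, TTTGGCGC, TTTCGCGC or TTTGCCGC (E2F, the factor family that drives S phase genes), CCAAT or TGACGTCA (the cyclic AMP response element, CRE).
Cdc45, chr16:18811973-18812222, minus strand: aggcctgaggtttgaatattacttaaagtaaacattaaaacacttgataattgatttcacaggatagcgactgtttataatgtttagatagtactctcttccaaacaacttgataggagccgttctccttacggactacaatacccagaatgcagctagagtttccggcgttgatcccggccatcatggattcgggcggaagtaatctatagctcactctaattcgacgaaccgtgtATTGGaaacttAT
Mcm2, chr6:88898781-88899030, minus strand: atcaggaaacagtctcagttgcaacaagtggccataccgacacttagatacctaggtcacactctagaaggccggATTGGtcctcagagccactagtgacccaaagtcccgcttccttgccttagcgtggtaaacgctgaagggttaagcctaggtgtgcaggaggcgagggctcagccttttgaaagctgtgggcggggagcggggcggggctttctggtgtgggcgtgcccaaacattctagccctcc
Mcm6, chr1:128359706-128359955, minus strand: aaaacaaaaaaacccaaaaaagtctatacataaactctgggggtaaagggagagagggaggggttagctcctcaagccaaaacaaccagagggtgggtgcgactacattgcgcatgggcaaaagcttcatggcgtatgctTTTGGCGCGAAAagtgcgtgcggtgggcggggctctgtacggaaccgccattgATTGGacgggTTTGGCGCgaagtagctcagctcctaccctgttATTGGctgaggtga
Mcm7, chr5:138171884-138172133, minus strand: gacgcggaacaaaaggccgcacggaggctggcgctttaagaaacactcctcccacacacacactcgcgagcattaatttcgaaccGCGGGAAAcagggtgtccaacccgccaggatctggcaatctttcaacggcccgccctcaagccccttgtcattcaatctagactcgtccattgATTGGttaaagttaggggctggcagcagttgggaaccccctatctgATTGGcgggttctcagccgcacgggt
In Mcm6, 3 E2F matches lay at −110 to −103, −106 to −99 and −47 to −40 from the start, the first and second sharing bases. The Mcm7 window printed held 1 at −165 to −158 and another after the start, at 17 to 24. Neither the Cdc45 nor the Mcm2 window held an E2F match, and the second CCAAT match of Cdc45 spans the start. Among the windows not printed, Mcm5 held a pair of E2F matches that share bases and a CRE at −99 to −92, Mcm3 had 2 E2F matches, both after the start, and neither Pcna nor the other Mcm7 window had one. Of 32851 promoter windows of the same length, 2.26% held an E2F match, 37.4% a CCAAT box and 1.79% a CRE; all 8 windows matched here held CCAAT. These matches describe letters, not bound sites.

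Transcript levels of the 10 genes spanned a wide range within the same cells. In vehicle RS, Mcm7 stood at 1713 ± 83.4 normalized counts per kb of exon (SD, n = 3), above 93.9% of 25027 genes with a known length. Pcna followed at 923 ± 102, Gins1 at 331 ± 12.0 and Cdc45 at 180.0 ± 9.96. The hexamer subunits, which act in equal numbers in the ring, were far apart: after Mcm7 came Mcm5 at 85.8 ± 11.9, Mcm6 at 57.2 ± 2.41, Mcm4 at 29.3 ± 1.96, Mcm3 at 4.32 ± 1.34 and Mcm2 at 0.176 ± 0.0759 per kb.

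Mcm7 was thus 397-fold above Mcm3 in level per kb. For Mcm2 the vehicle level rested on 4 counts over the 3 libraries (95% exact Poisson interval 1.09 to 10.2, for counting error only), against 24838 counts for Mcm7. Gins2, at 58.6 ± 6.50 per kb, and Mcm6 overlapped in their vehicle libraries, and every other pair of neighbours in the order was separate. The order was the same with the longest transcript's length in place of all exon bases, a choice made after the data were seen. Of the GINS subunits outside the 10 genes, Gins4 reached 1137 ± 88.8 and Gins3 13.2 ± 1.85 per kb, so the 4 subunits of that complex also lay far apart.

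**Figure D1:**
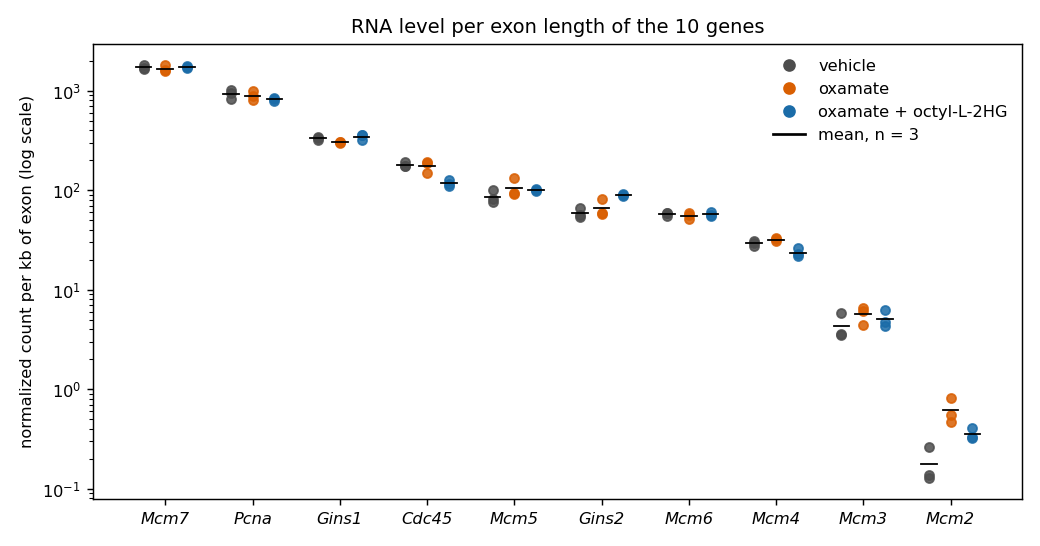
Normalized counts per kb of exon (log axis) for the 10 genes, ordered by vehicle level, with each library as a point and the mean of 3 as a bar. Mcm7 lies highest at 1713 per kb in vehicle and Mcm2 lowest at 0.176, and the shifts between treatments are small beside the distances between most genes.

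Cdc45, which binds the MCM ring together with GINS, lay lower with octyl-L-2HG than in either other group. Its normalized count was 611, 610.3 and 671 in vehicle libraries 1 to 3, 520.1, 665 and 654 in oxamate libraries 4 to 6 and 401, 444 and 388 in the libraries given both compounds. The vehicle and oxamate libraries overlapped, with oxamate library 4 lowest of the 6, while all 3 libraries with octyl-L-2HG lay below every other library. The fitted log2 difference was −0.04 (SE 0.09) for oxamate against vehicle, or 0.06 without library 4. It was −0.60 (SE 0.10) for oxamate with octyl-L-2HG against oxamate, a level 0.658 times as high (−0.71 without library 4), and −0.64 (SE 0.10) against vehicle. Ufd1, a cofactor of the p97 segregase, lies on the opposite strand and shares 209 exon bases with Cdc45 (6.0% of its exon bases), and its log2 differences were −0.13, −0.17 and −0.30 in the same 3 comparisons (edgeR adjusted p = 0.306, 0.112 and 0.00242).

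**Figure D2:**
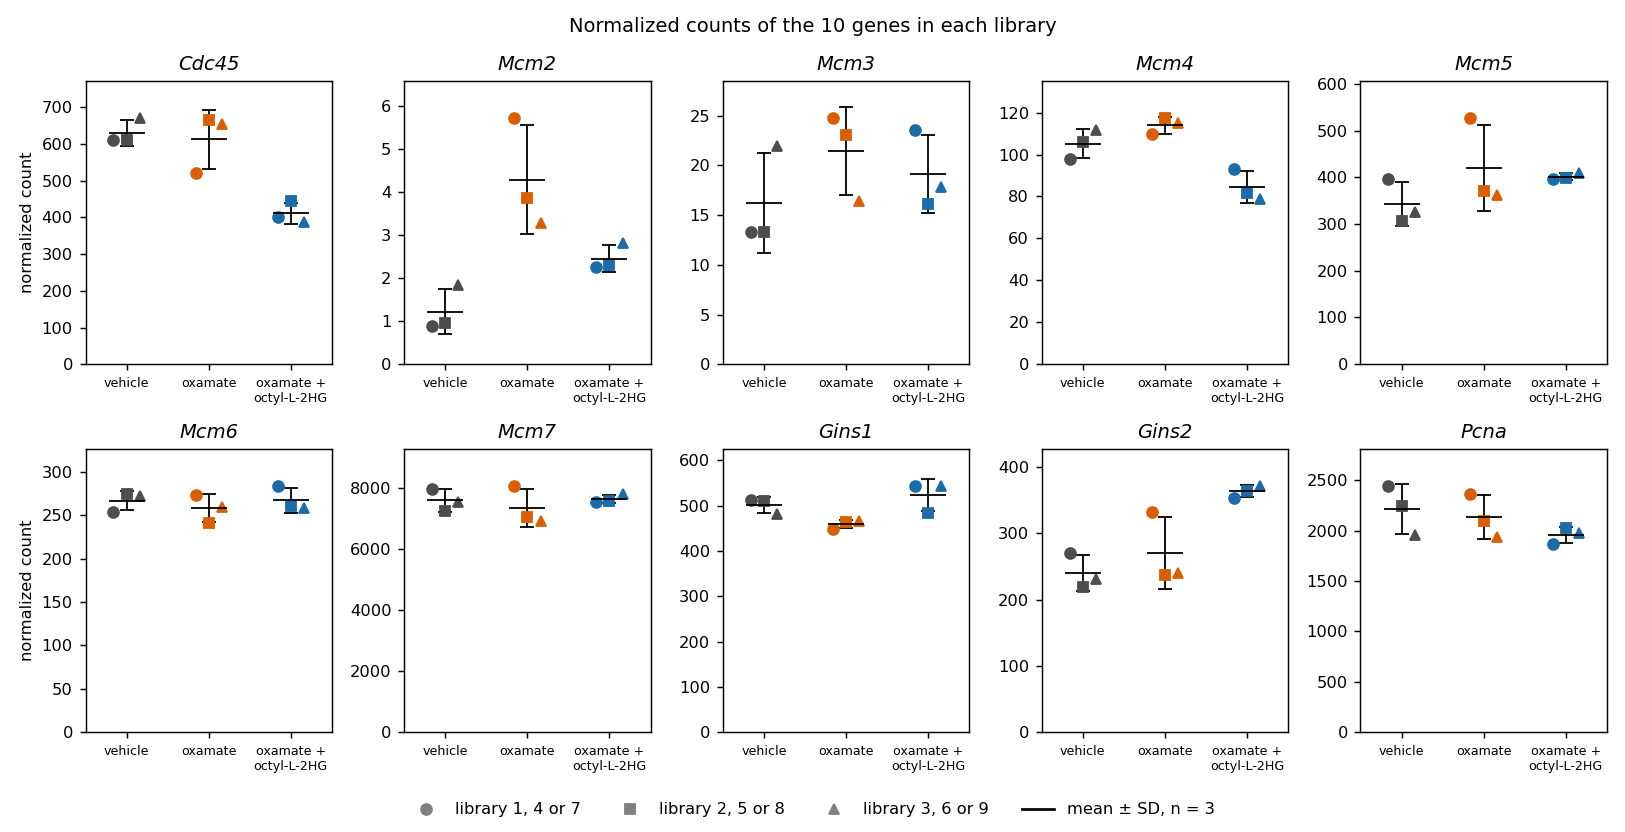
Normalized count of each of the 10 genes (one panel each, axis from 0) in the 9 libraries, by treatment; points are libraries and black bars the mean ± SD of 3. Cdc45 lies between 388 and 444 in the libraries with octyl-L-2HG and between 520.1 and 671 elsewhere, and Gins2 lies between 354 and 372 against 219 to 332.

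Among the ring subunits, Mcm4 also lay lower with octyl-L-2HG. Mcm4 read 97.7, 106 and 112 in vehicle, 109.6, 117 and 115 in oxamate and 93.2, 81.8 and 78.6 with octyl-L-2HG added. The first 2 groups overlapped and the octyl-L-2HG group lay below both. Its log2 difference was 0.12 (SE 0.12), −0.46 (SE 0.13) and −0.34 (SE 0.13) for oxamate against vehicle, the combination against oxamate and the combination against vehicle.

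Mcm5 was 396, 306 and 325 in vehicle, 527, 371 and 362 in oxamate and 395, 398 and 409 with both compounds. The high oxamate value was that of library 4, and the groups overlapped in all 3 comparisons. Its log2 difference for oxamate against vehicle, 0.30 (SE 0.13), was 0.09 without that library, and that of the combination against oxamate changed from −0.10 to 0.11.

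Mcm6 and Mcm7 varied little. Mcm6 read 254, 275 and 272 in vehicle, 273, 242 and 259.8 in oxamate and 284, 261 and 258 with octyl-L-2HG. Mcm7 read 7973, 7239.7 and 7532 in vehicle, 8060.3, 7045 and 6894 in oxamate and 7543, 7570.1 and 7791 with octyl-L-2HG. For both genes every pair of groups overlapped, and all fitted log2 differences lay between −0.04 and 0.03. The gene body of Mcm7 also carries the miRNAs Mir25, Mir93 and Mir106b on its strand, and its exons share 7.3% of their bases with Ap4m1 and 1.4% with Cops6 on the other strand.

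Mcm3 and Mcm2 had few reads. Mcm3 read 13.3, 13.3 and 22.0 in vehicle, 24.8, 23.1 and 16.4 in oxamate and 23.6, 16.1 and 17.8 with octyl-L-2HG, with overlap throughout. Mcm2 had raw counts of 1, 1 and 2 in vehicle, 6, 4 and 3 in oxamate and 2, 2 and 3 with octyl-L-2HG. Its 3 oxamate libraries lay above all others after normalization, and the ratio of summed counts per depth, oxamate over vehicle, was 3.51 with a 95% interval of 1.08 to 14.8 that covers counting error only. The fitted log2 difference of Mcm2 for oxamate against vehicle was 1.83 (SE 0.72) and did not pass (edgeR adjusted p = 0.169). The ratio of the combination to oxamate was 0.545 (0.184 to 1.47).

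Gins2, a subunit of the GINS complex that binds the ring beside Cdc45, lay higher with octyl-L-2HG, in the other direction from Cdc45. It was 270.1, 219 and 232 in vehicle, 332, 238 and 240.1 in oxamate and 354, 364 and 372 with octyl-L-2HG. The combination libraries were above the other 6, and vehicle and oxamate overlapped, with library 4 highest of the oxamate group. The log2 difference was 0.18 (SE 0.12) for oxamate against vehicle, −0.01 without library 4, then 0.40 (SE 0.12) for the combination against oxamate, 0.59 without library 4, and 0.57 (SE 0.12) against vehicle.

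Most of the exon bases of Gins2 (2758 bases, 67.3%) overlap exons of Gse1 on the opposite strand, and whether the counting used strand is not given in the sources used here. Gse1 itself had a mean of 68.5 ± 5.71 normalized counts in vehicle against 240.2 ± 26.6 for Gins2 (SD, n = 3). Its log2 difference was −0.40 (SE 0.15) for the combination against oxamate (edgeR adjusted p = 0.0944), opposite in sign to that of Gins2. Gins1 was 514, 511 and 481 in vehicle, 449.6, 464 and 466 in oxamate and 544, 484 and 544 with octyl-L-2HG, so the oxamate libraries lay below both other groups by small amounts: its log2 difference was −0.12 (SE 0.08) for oxamate against vehicle and 0.16 (SE 0.08) for the combination against oxamate.

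Gins3 and Gins4, the remaining subunits of the complex, were not among the selected genes. Gins3 was 30.2, 39.8 and 37.5 in vehicle, 12.4, 23.1 and 30.7 in oxamate and 23.6, 17.3 and 17.8 in the combination. It was lower in the combination than in vehicle, with a log2 difference of −0.90 (SE 0.27, edgeR adjusted p = 0.0206), and its differences of −0.72 for oxamate against vehicle and −0.18 for the combination against oxamate did not pass (adjusted p = 0.123 and 0.782). Gins4 was 1654, 1415 and 1530.3 in vehicle, 1601, 1491 and 1542 in oxamate and 1819, 1774 and 1773 in the combination. Its combination libraries lay above all others, with log2 differences of 0.19 against oxamate and 0.20 against vehicle that did not pass (adjusted p = 0.108 and 0.0579).

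Pcna was 2446, 2245 and 1957 in vehicle, 2368, 2102 and 1939 in oxamate and 1869, 2024 and 1982 with octyl-L-2HG. All groups overlapped, and the log2 differences were −0.05 (SE 0.09), −0.15 (SE 0.09) and −0.20 (SE 0.09). Reads of Pcna and its pseudogene Pcna-ps2 may be shared between near-identical copies, which leaves the Pcna level uncertain by an amount not measured here. In vehicle, the reads assigned to Pcna-ps2 had a mean of 42.7 normalized counts, against 2216 for Pcna. The log2 differences of Pcna-ps2 were 0.02, −0.38 and −0.36 in the same order of comparisons (edgeR adjusted p = 0.972, 0.351 and 0.318).

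In bulk libraries a lower transcript level can come from fewer cells of a type or from less RNA per cell, and these cannot be told apart. For oxamate against vehicle, 0 of the 10 genes passed an edgeR adjusted p of 0.05, where 3.97% of all genes were called higher and 1.22% lower. DESeq2 also called 0. At an unadjusted p of 0.05 there were 2, Mcm2 and Mcm5, and the share of all genes at that threshold is not given. The groups did not overlap for 2 genes, Mcm2 and Gins1, against 21.3% of all genes. For the combination against oxamate, 2 genes were called lower (Cdc45, Mcm4) and 1 higher (Gins2), where 8.06% of all genes were called lower and 3.18% higher; 5 genes did not overlap (Cdc45, Mcm2, Mcm4, Gins1, Gins2), against 28.8% of all genes. For the combination against vehicle, 1 was called lower (Cdc45) and 1 higher (Gins2), where 10.6% were called lower and 7.48% higher, and 4 did not overlap (Cdc45, Mcm2, Mcm4, Gins2), against 36.5%. These counts follow from the choice of genes and are read no further. The median log2 difference of the 10 genes was 0.04, −0.12 and 0.02 in the 3 comparisons, beside −0.01, −0.04 and −0.05 over all genes tested. The comparisons share libraries, so their values are not independent.

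Refits of the same libraries, which chose the genes, describe how far the values depend on the settings and lend them no support. Over 16 alternatives the log2 difference of Cdc45 ran from −0.71 to −0.54 against oxamate and from −0.70 to −0.60 against vehicle, and that of Gins2 against vehicle from 0.48 to 0.67. The call of Mcm4 against oxamate was lost without oxamate library 5 or 6 or without combination library 8 or 9 (log2 difference −0.44, −0.46, −0.44 and −0.41), and also with DESeq2 or without the filter on low counts. That of Gins2 against oxamate was lost without oxamate library 5 or 6 or without combination library 7, 8 or 9 (0.31, 0.32, 0.42, 0.40 and 0.37) and with total counts as the scale. Scaled to total counts, 4 genes were called against vehicle, 3 lower (Cdc45, Mcm4 and Pcna) and 1 higher, in place of 1 and 1. On that scale 4598 of all 25128 genes were called in this comparison. Pcna was also called lower against vehicle without vehicle library 3 (−0.29) or oxamate library 4 (−0.20) and when only those groups were fitted (−0.18). With offsets for GC content and transcript length, Mcm4 was called lower against vehicle (−0.41) and Gins1 higher against oxamate (0.21).

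**Figure D3:**
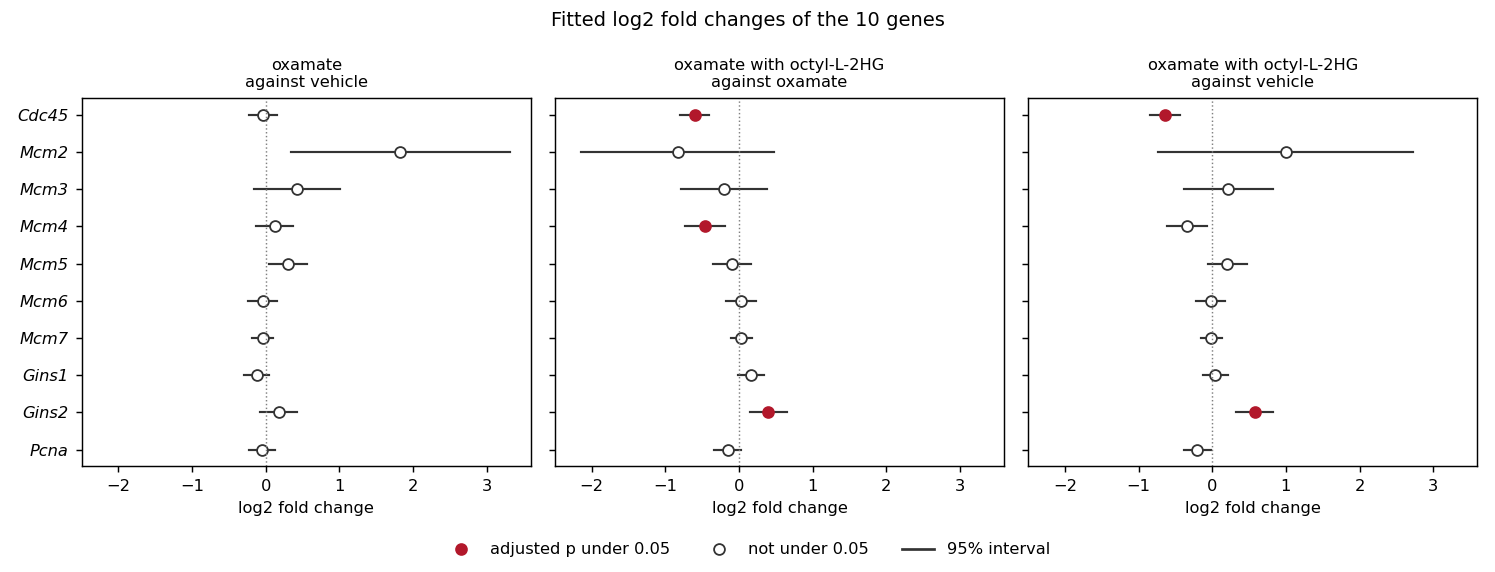
Fitted log2 fold changes of the 10 genes with 95% intervals in the 3 comparisons; filled points have an edgeR adjusted p under 0.05, shown as a description since the genes were selected on these libraries. Cdc45 lies at −0.60 and −0.64 and Gins2 at 0.40 and 0.57 in the comparisons with octyl-L-2HG, and the interval of Mcm2 is the widest in each panel.

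The transcripts whose levels followed Cdc45 most closely were A930024E05Rik, Gm21759, Speer4b, Gm4922 and Slc25a37, by Pearson r of log2(normalized count + 1) over the 9 libraries, which share the 3 treatments. The r was 0.988 for A930024E05Rik and 0.984 for Slc25a37, a mitochondrial iron importer, the first and the fifth of 10707 genes with a mean of at least 100 normalized counts. In all 5 the mean was lower in the combination than in either other group, for example 673, 671 and 319 normalized counts for Gm4922 and 276, 279 and 180.5 for Slc25a37. Cdc45 was itself lowest in the combination libraries, so this pattern follows from choosing genes by their likeness to Cdc45.

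Beyond the selected genes, 81 other genes of the replication machinery were listed by role, and 80 of them had enough counts to be tested. For oxamate against vehicle, 2 of 80 rose (2.5%, against 3.97% of all genes) and 0 fell (1.22%). DESeq2 also called 2, and 15 had an unadjusted p under 0.05. The shares of all genes for the DESeq2 and unadjusted counts are not given, so neither is set against all genes. Tipin, which with Timeless protects the moving fork, was 2205, 2111 and 2179.6 in vehicle and 2466, 2782 and 2905 in oxamate. Its log2 difference was 0.33 (SE 0.07, edgeR adjusted p = 0.00593), and the groups did not overlap. Uhrf1, which brings the maintenance DNA methyltransferase to newly made DNA, was 3459.8, 3065 and 3345 in vehicle and 5148, 4155 and 4281 in oxamate, a log2 difference of 0.47 (SE 0.08, adjusted p = 0.000776). In the combination Uhrf1 was at −0.19 against oxamate (edgeR adjusted p = 0.139) and at 0.28 against vehicle (adjusted p = 0.0148). The call against vehicle was lost without vehicle library 2 or without combination library 7, 8 or 9.

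For the combination against oxamate, 7 of the 80 fell (8.75%, against 8.06% of all genes) and 5 rose (6.25%, against 3.18%). Mtbp, a partner of Ticrr (treslin) in loading Cdc45 onto the ring, fell the most of the 7. It was 1587, 1988 and 1955 in oxamate and 973, 899 and 897 in the combination, and 1352, 1638 and 1566 in vehicle. The log2 difference against oxamate was −1.02 (SE 0.09, adjusted p = 3.5e-07), and the combination libraries lay below the other 6.

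Fen1, the flap endonuclease that trims Okazaki fragments, was 221, 244 and 249 in oxamate and 159, 168 and 151 in the combination. It fell by 0.60 on the log2 scale (SE 0.10, adjusted p = 0.000527). Tipin fell by 0.44 (adjusted p = 0.000324), to 2134, 2036 and 1954, a range whose values all lay below those in oxamate. The other calls were Mcmbp, a binding protein of MCM subunits (−0.73), Dscc1 of the cohesion clamp loader (−0.46), the helicase Recql4 (−0.43) and Mcm9, an MCM homolog of repair (−0.28), with adjusted p = 0.0187, 0.000831, 0.026 and 0.0228. Those that rose were Atad5, which unloads Pcna (0.55), Rfc1, the large clamp loader subunit (0.30), the histone chaperone Nasp (0.29), the transcription factor E2f8 (0.24) and Donson, which acts in helicase assembly (0.19), the last at the threshold.

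For the combination against vehicle, 8 of the 80 rose (10%, against 7.48% of all genes) and 7 fell (8.75%, against 10.6%). The 3 largest falls were those of Gins3 (−0.90), Ccne2, a cyclin of S phase entry (−0.83, adjusted p = 0.000584), and Mcmbp (−0.81, adjusted p = 0.00457). The 3 largest rises were those of Atad5 (1.05, adjusted p = 4.11e-05), Ticrr (0.62, adjusted p = 0.000749) and Orc2 of the origin recognition complex (0.33, adjusted p = 0.0124). Ticrr and Mtbp, which work as partners, thus moved in opposite directions in this comparison, with Ticrr at 88.0, 102 and 97.1 in vehicle and 153, 146 and 149 in the combination and Mtbp at −0.74 (adjusted p = 5.67e-06).

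The median log2 difference of the 80 genes was −0.03, 0.05 and 0.02, beside −0.01, −0.04 and −0.05 for all genes tested. Without oxamate library 4 the counts of called genes were 12, 20 and 25 in place of 2, 12 and 15, while over all genes 9.17%, 17.6% and 24.6% were then called. Without oxamate library 5 or combination library 7, 8 or 9 the count for the combination against oxamate was 7, 6, 5 and 7. The shares of all genes called in those refits are not given, so these counts are not set against all genes. Tipin and Uhrf1 kept their calls for oxamate against vehicle under all 16 alternatives, as did 5 of the 12 genes called for the combination against oxamate (Mtbp, Tipin, Rfc1, Dscc1 and Fen1) and 8 of the 15 called against vehicle, Mcmbp, Ccne2, Atad5 and Ticrr among them. The calls of Mcmbp, Recql4, Mcm9, Atad5, Nasp, E2f8 and Donson against oxamate were each lost without at least 1 library. Of the 9 refits leaving out 1 library, Donson lost its call in 8, and Recql4 and E2f8 in 5 each. Mcm9 lost it in 4, Mcmbp and Atad5 in 3 each and Nasp in 2. All their log2 differences kept their sign over the 16 alternatives. These ran from −0.94 to −0.59 for Mcmbp, from −0.48 to −0.39 for Recql4 and from −0.32 to −0.23 for Mcm9. They ran from 0.44 to 0.70 for Atad5, from 0.21 to 0.33 for Nasp, from 0.20 to 0.29 for E2f8 and from 0.15 to 0.24 for Donson. The call of Recql4 was also lost with DESeq2, those of Recql4 and Mcm9 without the filter on low counts, that of Mcm9 when only those groups were fitted, and those of Nasp, E2f8 and Donson with total counts as the scale. That of Gins3 against vehicle was lost without vehicle library 2 or 3 or combination library 8 or 9 and with DESeq2, and that of Orc2 without vehicle library 1 or 3 and with total counts as the scale, both with their sign kept.

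**Figure D4:**
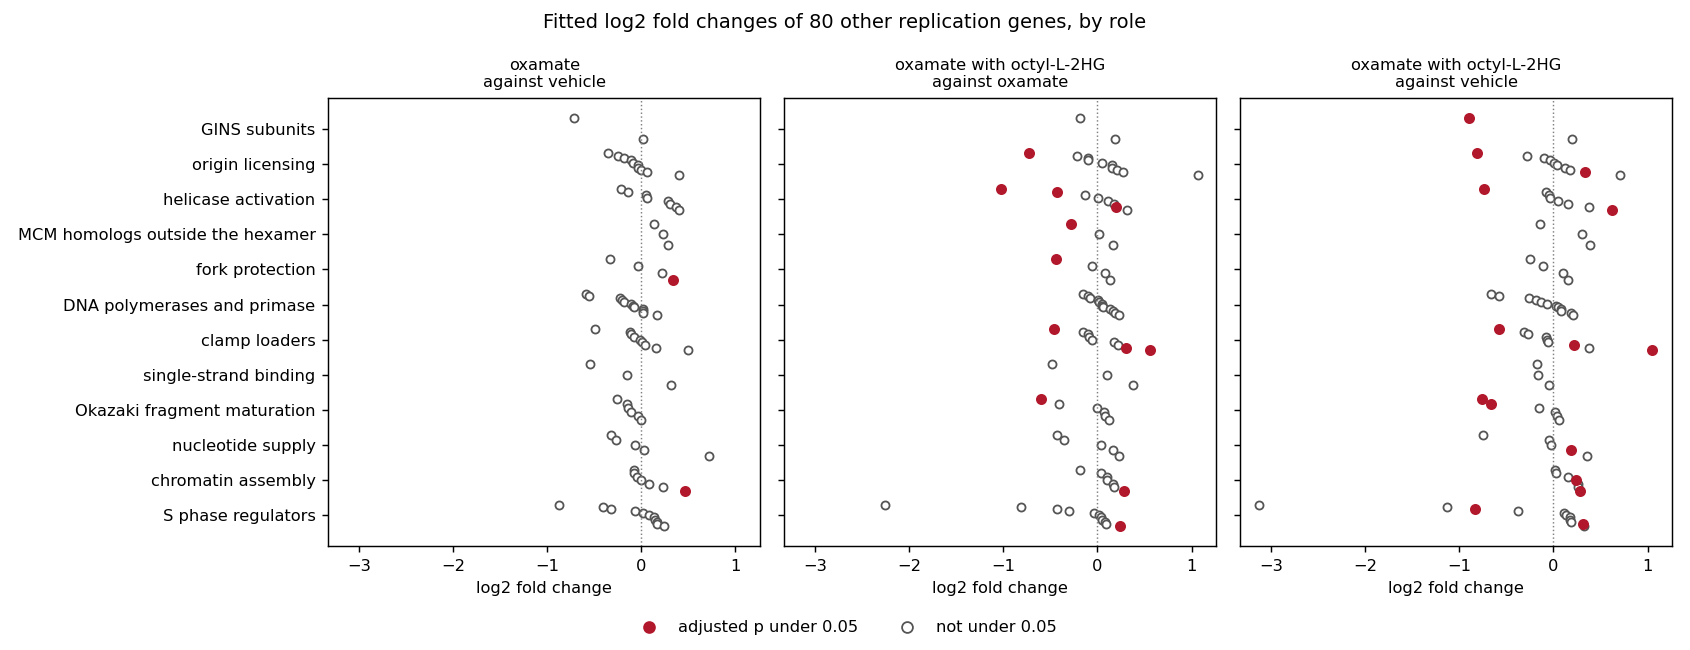
Fitted log2 fold changes of 80 replication genes outside the selected set, one point per gene in rows by role, for the 3 comparisons; filled points have an edgeR adjusted p under 0.05. Called genes number 2, 12 and 15 and lie on both sides of 0 in both panels with octyl-L-2HG.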

How the data were processed

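Polyadenylated RNA of 9 round spermatid libraries was made into stranded libraries (KAPA). The labels and the methods name different Illumina sequencers. The authors trimmed reads with fastx_toolkit and cutadapt 2.10, aligned them with TopHat 2.1.1 (GRCm39, Ensembl annotation), and counted reads per gene with htseq-count 2.01. The deposited table holds raw counts and a DESeq2 1.36.0 normalized signal (counts divided by 1 size factor per library); no column was left unmapped. Levels printed are the deposited normalized signal, which carries counting error; exon lengths came from GENCODE (GRCm38), matched by gene ID for 99.6% of genes.

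The counts were tested with edgeR 4.0.16 (quasi-likelihood, robust, TMM; R 4.3.3) in 1 fit over the 9 libraries, on genes with at least 10 summed counts, with Benjamini-Hochberg adjustment over all 25128 genes and a threshold of 0.05; the script was tested on simulated data. DESeq2 1.42.0 was an alternative. The genes, lists and naming rule were chosen with earlier results of these data known. All 10 genes were named, and of the other replication genes each one called in the first or second comparison, the 3 largest in each direction in the third, and Gins3 and Gins4; also the 5 genes closest to Cdc45. The authors' test of all 3 groups was not repeated.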

Additional observations from a re-analysis of the deposited data

How the results depend on the processing

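No paired analysis was run, because the groups share no replicate numbers and the sources do not say whether libraries of different groups were paired. With single libraries left out, the number of the 10 genes called was 0 for oxamate against vehicle, 1 to 3 for the combination against oxamate and 2 to 3 for the combination against vehicle, and that of the 80 other replication genes was 2 to 12, 5 to 20 and 10 to 25. Over all genes, 9.17%, 17.6% and 24.6% were called without oxamate library 4. The shares for the other libraries left out are not given, so these ranges are read no further. An unadjusted p under 0.05 gave 2 of the 10 genes for oxamate against vehicle and 4 for the combination against vehicle, and 15, 22 and 29 of the 80 in the 3 comparisons. An adjusted p under 0.01 left 1 of the 10 for the combination against oxamate, and 5 and 9 of the 80 in the comparisons with octyl-L-2HG. The shares of all genes at these thresholds are not given, so the counts are not set against all genes and are read no further. Total counts as the scale gave 4 of the 10 for the combination against vehicle, where 4598 of all 25128 genes were called. Of the 80, oxamate against vehicle gave 4 with no filter on low counts and 5 with offsets for GC content and transcript length. The combination against vehicle gave 24 when only those groups were fitted. The shares of all genes in these refits are not given, and the causes were not tested. Of 477 log2 differences of the 10 genes under the alternatives, 27 changed sign, none among those called and none beyond 0.11 in size after the change. Another scale moved the median of all genes by at most 0.063 (log2). Depth limits Mcm2 and Mcm3, whose few reads leave wide intervals.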
